A study of Mus musculus with 6 samples.

Results

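Transcripts of the L1 spinal cord, the first lumbar segment, were compared between mice that carried tumour cells at either of 2 sites and mice given the vehicle. All 6 arrays of the series were used: 4 arrays of tumour-bearing mice against 2 arrays of vehicle controls, chosen by their labels and not by any measured value. The mice were male, with severe combined immunodeficiency (SCID), a defect that leaves them without functional B and T lymphocytes. Experiments began at 9 weeks of age, and cords were taken 6 weeks after injection, at 15 weeks. In the 2 arrays labelled N-inv (neural invasion), cells of Capan-1, a human pancreatic adenocarcinoma line, were placed inside the left sciatic nerve. For the 2 arrays labelled SC, Capan-1 cells had formed a subcutaneous model, away from the nerve. The 2 arrays labelled PBS came from mice given phosphate-buffered saline, and the labels do not say at which site. The tumour is 1 human cell line in a host without adaptive immunity, and no group without an injection was measured. Nothing states that arrays of 1 group represent different animals, so p-values measure only the spread between these samples, which may be technical.

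A tumour can act on the spinal cord by a local route, through an injured or invaded nerve, or by a systemic route, through cytokines and hormones in the blood. Cytokines of the interleukin-6 family bind receptors that share the gp130 subunit (Il6st), activate the transcription factor STAT3 and raise acute phase proteins and the feedback inhibitor Socs3. In the cord, astrocytes and vessels respond to such signals, microglia supply complement C1q, and neurons of the dorsal horn and the autonomic columns use neuropeptides. The comparison here asks which genes differed from the vehicle in the same direction in mice of both sites.

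Values are probe set intensities, scaled so that every array has a median of 256.2. They are given in the order replicate 1, replicate 2. Differences are on the log2(intensity + 25.62) scale, as the tumour mean minus the PBS mean, with the standard error (SE) of the model. In bulk tissue, fewer cells of a type and less RNA per cell cannot be told apart. Probe sets are not compared with each other in level.

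The SC arrays stood apart. They correlated with each other at 0.963, lower than any other pair of arrays. Their Actb 3' to 5' ratios, which reflect RNA quality, were 3.814 and 4.705, against 3.05 to 3.565 elsewhere. The Gapdh ratios set them apart less, at 3.522 and 3.38, against 2.82 to 3.378 elsewhere. SC replicate 2 read 13060 for Xist, the RNA of the inactive X chromosome, against 138.6 to 228.5 elsewhere, although all mice were labelled male and Eif2s3y, a Y-linked gene, read 3152 on that array. The defining lumbar genes Hoxc10 and Hoxd10 and the neuronal gene Snap25 were well measured on every array, but the lumbar genes were not level. Hoxd10 read 4777 and 4439 in SC, against 2338 to 3139 elsewhere. Hoxa11, another lumbar gene, read 751.6 and 741.3 in SC, against 469.3 to 672.0 elsewhere. For Hoxc10 the SC arrays, at 4508 and 6425, lay on either side of the others. Defining genes of choroid plexus (Ttr), sensory neurons (Scn10a) and fat (Adipoq) lay below the filter on low values. The meningeal gene Dcn was well measured, at 11130 to 17050. The blood gene Alas2 read 95.73 and 776.5 in SC, against 275.2 to 620.9 elsewhere, while the blood gene Hba-a1 lay below the filter. The part that these differences between arrays play in the results was not tested.

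No probe set differed between tumour and PBS after adjustment. Of 27022 probe sets tested with limma, 0 had an adjusted p under 0.05 (percent called 0.0), and the smallest adjusted p was 0.9997 (limma, Benjamini-Hochberg over all probe sets). At an unadjusted p under 0.05 there were 1327 probe sets, 4.91% of those tested, with 641 higher (2.37%) and 686 lower (2.54%) in tumour arrays. The arrays labelled N-inv or SC lay above both PBS arrays without exception at 1581 probe sets (5.85%) and below both at 1543 (5.71%). With each gene taken as its brightest tested probe set, 773 of 12626 genes (6.12%) lay above and 591 (4.68%) below. An exact permutation test of 4 arrays against 2 has 15 splits, and its smallest two-sided p is 0.133. These shares describe the 6 arrays and do not show a change in any gene. The genes that follow are described by their values, and 0 of them passed the adjusted test.

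Most of these separations were narrow. Among the 773 genes that lay above, the median difference was 0.27 on the log2 scale, the median gap between the nearest tumour and PBS arrays was 0.06, and 15 genes had a gap wider than 0.5. Among the 591 genes that lay below, the median difference was -0.31, and 2 genes had a gap wider than 0.5. Of the 773 genes, 51 had a PBS mean below the filter cutoff of 155.5, so they were tested through their tumour arrays; this holds for 9 of the 15 genes with the widest gaps above. The filter thus favours wide gaps above, and the 15 and 2 are not compared.

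**Figure D1:**
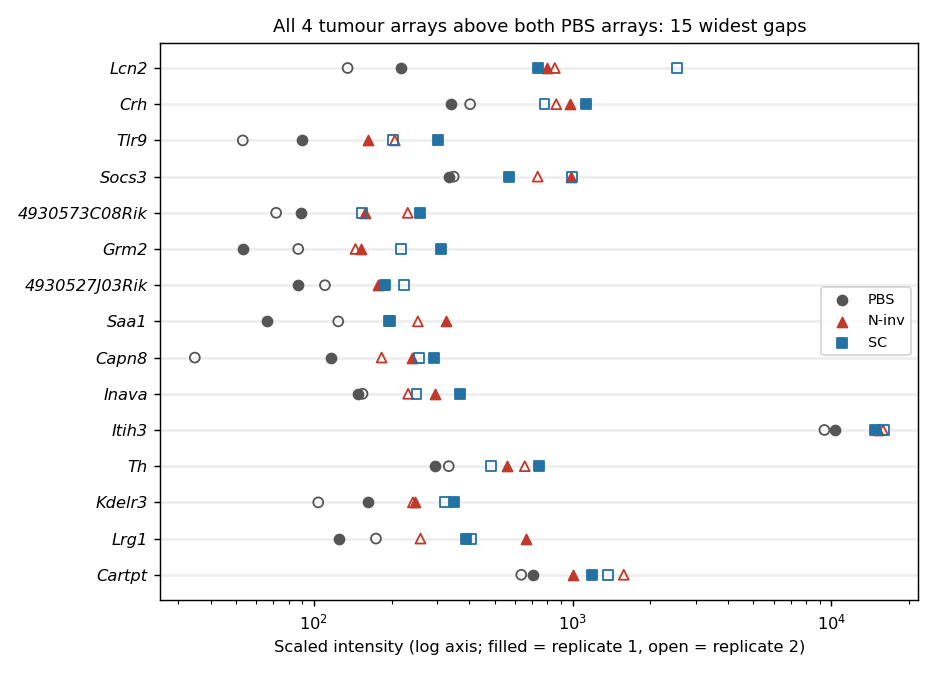
Scaled intensity (log axis) on each of the 6 arrays for the 15 genes with the widest gap among those in which all 4 tumour arrays lay above both PBS arrays, widest first. Grey circles are PBS, red triangles N-inv and blue squares SC, filled for replicate 1 and open for replicate 2; Lcn2 has the widest gap, and its SC replicate 2 value of 2530 lies far above the other tumour arrays.

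Some of the 15 genes with the widest gaps above encode acute phase proteins or a feedback inhibitor of cytokine signalling, a theme picked after the values were seen. They do not lead the ranking as a block: Crh and Tlr9, for example, had wider gaps than Socs3. Lcn2, lipocalin-2, an iron-siderophore binding protein made by reactive astrocytes, vessels and neutrophils, had the widest gap of all genes. Socs3, the inhibitor that interleukin-6 family cytokines induce through STAT3, had the fourth widest. The 250 bases upstream of both genes are shown because Socs3 is a textbook STAT target and Lcn2 an acute phase gene. They are from RefSeq, build GRCm38.p6, 5′ to 3′ on the gene's strand. Capitals mark the palindrome TTCNNNGAA, to which STAT factors bind.
Socs3, chr11:117969367-117969616, minus strand: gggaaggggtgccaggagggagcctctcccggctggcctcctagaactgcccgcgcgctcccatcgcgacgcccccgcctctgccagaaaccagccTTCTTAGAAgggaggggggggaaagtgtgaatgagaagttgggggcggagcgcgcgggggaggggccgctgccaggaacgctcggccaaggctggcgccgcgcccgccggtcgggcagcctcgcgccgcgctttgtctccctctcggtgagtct
Lcn2, chr2:32387740-32387989, minus strand: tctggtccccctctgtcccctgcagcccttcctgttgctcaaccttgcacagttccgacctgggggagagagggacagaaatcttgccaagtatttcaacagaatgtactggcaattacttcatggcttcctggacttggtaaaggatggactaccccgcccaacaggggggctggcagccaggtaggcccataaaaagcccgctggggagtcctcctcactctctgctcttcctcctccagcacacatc
The Socs3 window holds 1 match, TTCTTAGAA, which begins 154 bases before the start. The Lcn2 window holds none, which says only that these letters are not in it. Searched on both strands, the motif was present in 2306 of 32851 mouse windows of this length (7.02%). Of the 15 genes with the widest gaps above, 12 had a window and Socs3 was the only 1 that held the motif.

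Lcn2 read 217.7 and 135.3 in PBS, against 797.3 and 854.6 (N-inv) and 736.2 and 2530 (SC). All 4 tumour arrays lay well above PBS, 3 of them close together, and the difference was 2.46 ± 0.46 (SE). Neutrophils also carry Lcn2, and their gene S100a8 read 777.3 and 118.3 in PBS, against 109.6 and 162.2 (N-inv) and 653.3 and 1581 (SC). S100a8, like Lcn2, was highest on SC replicate 2, and it was low on both N-inv arrays and PBS replicate 2. The part of neutrophils in the Lcn2 values was not tested.

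Socs3 read 334.5 and 347.6 in PBS, against 988.3 and 733.8 (N-inv) and 569.0 and 992.7 (SC). The difference was 1.17 ± 0.25 (SE), and the site differences from PBS were 1.26 for N-inv and 1.09 for SC. A second probe set also separated the groups (difference 1.07 ± 0.28), and the third had the same sign with overlapping arrays (0.44 ± 0.26).

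Saa1, serum amyloid A1, a classical acute phase protein, read 66.06 and 124.5 in PBS, against 325.0 and 252.8 (N-inv) and 194.8 and 197.7 (SC). Its difference was 1.17 ± 0.23 (SE), and both PBS values lay below the filter cutoff. Lrg1, leucine-rich alpha-2-glycoprotein, a vessel and liver protein raised in inflammation, read 125.2 and 174.1 in PBS, against 662.3 and 258.7 (N-inv) and 389.2 and 405.2 (SC). The groups did not overlap, although the N-inv arrays differed from each other more than the SC arrays did. The difference was 1.32 ± 0.34 (SE).

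Itih3, inter-alpha-trypsin inhibitor heavy chain 3, which stabilises hyaluronan in the matrix, was a bright gene with little spread. It read 10280 and 9397 in PBS, against 15160 and 15820 (N-inv) and 14680 and 15960 (SC). The 4 tumour arrays formed a tight group and the difference was 0.65 ± 0.14 (SE). Agt, angiotensinogen, an acute phase protein that cord astrocytes make, was chosen after its values were seen. It read 5982 and 6261 in PBS, against 8200 and 9434 (N-inv) and 11720 and 20970 (SC), with differences of 0.52 for N-inv and 1.35 for SC. The SC arrays were the higher ones here, and they differed widely from each other.

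A list of 43 genes of interleukin-6 family signalling and the acute phase was put together after these values were seen, so its counts describe the same pattern again. Of its members, 26 passed the filter on low values, and 13 of these (50.0%) lay above both PBS arrays on every tumour array, against 6.12% of all genes. Of the 26, 0 lay below. Among the 13, the PBS means of Saa1, Lrg1 and Timp1 were under the filter cutoff, so these 3 entered the count through their tumour arrays and had to differ. Besides the genes above, the 13 comprised Il6ra, Stat3, Cebpb, Sbno2, A2m, Timp1 and Steap4. Sbno2, a STAT3-induced corepressor that was chosen after its values were seen, read 382.2 and 281.1 in PBS, against 545.4 and 489.1 (N-inv) and 516.3 and 524.4 (SC). The tumour arrays were close to each other, with a difference of 0.62 ± 0.17 (SE), though its other 2 probe sets overlapped (0.15 ± 0.14 and 0.09 ± 0.31). Stat3 itself differed by 0.27 ± 0.15, but only 1 of its 4 tested probe sets separated the groups, although all 4 had the same sign. The shared receptor subunit Il6st differed by -0.01 ± 0.13. The median difference over the 26 genes was 0.38, with 0.28 in N-inv and 0.40 in SC, against 0.01 over all genes.

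**Figure D2:**
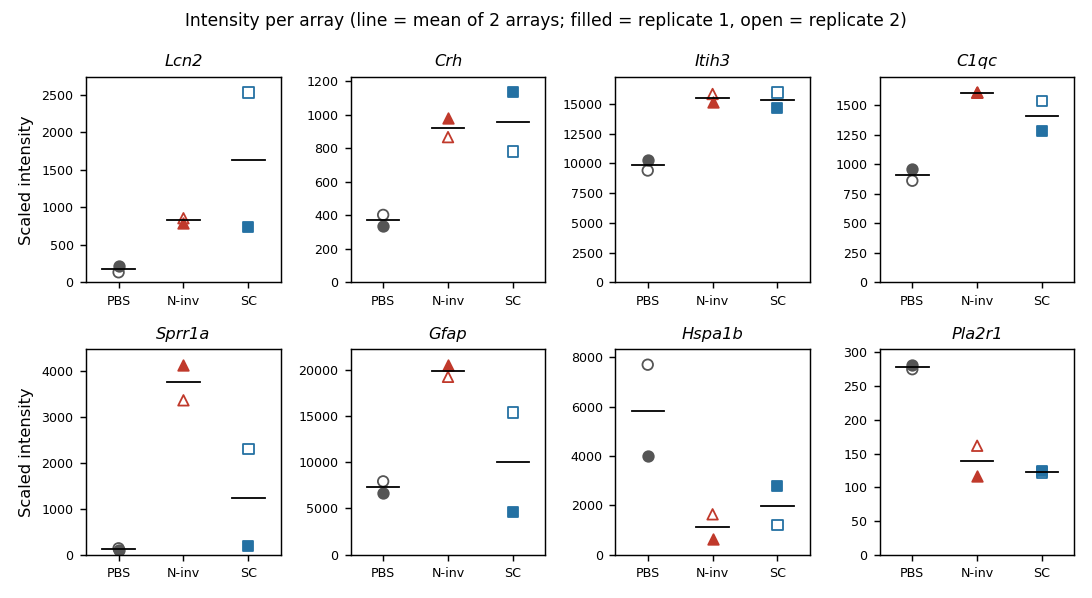
Scaled intensity (linear axes from 0) of 8 genes on each array, with PBS as grey circles, N-inv as red triangles and SC as blue squares, filled for replicate 1 and open for replicate 2; lines are means of 2 arrays. Lcn2, Crh, Itih3 and C1qc lie above PBS on all 4 tumour arrays and Hspa1b and Pla2r1 below, whereas Gfap on SC replicate 1 (4640) lies below both PBS arrays and Sprr1a there (187.1) lies close to them.

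Several genes with wide gaps above encode neuropeptides. Crh encodes corticotropin-releasing hormone, the peptide that starts the stress axis in the hypothalamus and is also made by spinal neurons. It read 339.1 and 402.3 in PBS, against 979.2 and 865.3 (N-inv) and 1132 and 779.7 (SC). The PBS arrays were close together and each tumour array lay far above them, with a difference of 1.27 ± 0.19 (SE). Both sites differed from PBS by about the same amount, 1.26 for N-inv and 1.29 for SC.

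Cartpt, the precursor of the CART peptides, which is strongly expressed in sympathetic preganglionic neurons, read 702.8 and 634.0 in PBS, against 1006 and 1577 (N-inv) and 1185 and 1375 (SC). Its difference was 0.90 ± 0.21 (SE), with no overlap. Outside the peptides, Th, tyrosine hydroxylase, the rate-limiting enzyme of catecholamine synthesis, read 294.0 and 332.7 in PBS, against 556.0 and 653.9 (N-inv) and 744.5 and 485.7 (SC). The difference of 0.89 ± 0.20 (SE) was alike in N-inv (0.89) and SC (0.89). Pnoc, the precursor of the opioid-related peptide nociceptin, read 380.6 and 436.9 in PBS, against 621.2 and 823.6 (N-inv) and 822.5 and 647.7 (SC), again with no overlap (0.79 ± 0.18).

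Other peptides lay above PBS more unevenly. Tac1, the substance P precursor, read 3385 and 4779 in PBS, against 9169 and 9327 (N-inv) and 5480 and 7127 (SC), so the N-inv arrays were the highest and the SC arrays lay between. Vgf, a granin-like precursor made by active and injured neurons, read 2749 and 2880 in PBS, against 6330 and 6394 (N-inv) and 3548 and 6479 (SC). Only SC replicate 1 came near the PBS level. The differences were 0.91 ± 0.20 for Tac1 and 0.97 ± 0.24 for Vgf.

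Of the pain neuropeptide and receptor list, 25 genes were tested: 6 (24.0%) lay above on all tumour arrays, namely Tac1, Pnoc, Npy, Npy1r, Adcyap1 and Crh, and 2 lay below, Ramp1 and Nts. The shares over all genes were 6.12% above and 4.68% below. Of 15 granin and peptide processing genes, 4 lay above (Scg2, Vgf, Pcsk1 and Cartpt) and 0 below. Scg2, secretogranin II, read 8208 and 9801 in PBS, against 10960 and 13200 (N-inv) and 11280 and 15990 (SC). Pcsk1, a convertase that cleaves peptide precursors, differed by 0.45 ± 0.15 (SE). The synaptic vesicle list of 20 genes had 0 above and 0 below.

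Complement C1q subunits were above PBS at both sites. C1qc read 960.0 and 859.7 in PBS, against 1607 and 1603 (N-inv) and 1283 and 1532 (SC), a difference of 0.71 ± 0.15 (SE). C1qa read 1328 and 1288 in PBS, against 2403 and 2183 (N-inv) and 1501 and 2437 (SC) (0.67 ± 0.21). For both, SC replicate 1 was the tumour array nearest to PBS. For C1qb the brightest probe set separated the groups (0.31 ± 0.15), but the other 2 sets overlapped. Of 14 complement genes tested, 6 (42.9%, against 6.12% of all genes) lay above and 0 below. The 6 were the C1q chains, the C1 inhibitor Serping1, clusterin (Clu) and the receptor chain Itgb2.

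C1q in the cord comes mainly from microglia, and the rest of the microglial list was not shared by the sites. Of 23 microglial genes tested, 4 lay above (17.4%, against 6.12% of all genes), 3 of them C1q chains and the fourth Cd53. The median of the list was 0.50 in N-inv against PBS and -0.18 in SC against PBS. The homeostatic receptor Cx3cr1 read 824.1 and 988.7 in PBS, against 1691 and 1548 (N-inv) and 1026 and 452.9 (SC). Its N-inv arrays were high, and its SC arrays lay just above and well below the PBS arrays. Aif1 (IBA1), the usual histological marker, read 243.2 and 165.3 in PBS, against 364.5 and 468.4 (N-inv) and 198.6 and 149.2 (SC). Its N-inv arrays were high, and its SC arrays lay between the PBS arrays and below them.

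A few signalling genes of leukocytes, chosen after their values were seen, lay above on all tumour arrays. Ptpn6, the phosphatase SHP-1, read 339.7 and 355.7 in PBS, against 477.5 and 486.4 (N-inv) and 497.0 and 471.8 (SC). Its difference was 0.45 ± 0.13 (SE), with the sites level with each other. Csf3r, the receptor of granulocyte colony-stimulating factor, differed by 0.76 ± 0.19. Tlr9, the endosomal receptor of unmethylated DNA, had the third widest gap: 90.26 and 53.27 in PBS, against 161.9 and 205.9 (N-inv) and 302.1 and 203.0 (SC). Its PBS values lay below the filter cutoff.

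Reactive astrocyte genes lay above PBS in part. Of 28 tested, 9 (32.1%, against 6.12% of all genes) lay above and 0 below. Lcn2, Socs3, Timp1, Hspb1 and Serping1 were among the 9, and 1 of the 9 (Timp1) had a PBS mean under the filter cutoff. Hspb1, the small heat shock protein HSP27 of reactive astrocytes and injured neurons, read 3025 and 3149 in PBS, against 4568 and 4947 (N-inv) and 3737 and 4991 (SC) (difference 0.55 ± 0.16). Both of its probe sets separated the groups. Gfap, the astrocyte intermediate filament, did not: it read 6665 and 7927 in PBS, against 20520 and 19210 (N-inv) and 4640 and 15370 (SC). SC replicate 1 was below both PBS arrays and the difference was 0.83 ± 0.44 (SE). Serpina3n had the same order of arrays, with 1252 in SC replicate 1 against 1288 and 1396 in PBS. The homeostatic astrocyte list of 19 genes had 2 above (10.5%, against 6.12% of all genes) and 1 below (5.3%, against 4.68%). With quantile normalization that list had 0 above.

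Of 33 axon injury genes tested, 11 (33.3%) lay above and 2 (6.1%) below, against 6.12% and 4.68% of all genes. Sprr1a, a small proline-rich protein that injured neurons switch on, read 112.6 and 141.6 in PBS, against 4143 and 3367 (N-inv) and 187.1 and 2303 (SC). It had the largest difference of the genes described here, 3.42 ± 0.84 (SE), but 1 of the SC arrays was barely above PBS, and its PBS mean lay under the filter cutoff. Atf3, the injury-induced transcription factor, read 239.4 and 135.4 in PBS, against 601.2 and 788.5 (N-inv) and 166.1 and 681.0 (SC), so SC replicate 1 lay within the PBS range. The other axon injury genes that lay above were Sox11, Ecel1, Npy, Crh, Hspb1, Adcyap1, Anxa2, Flrt3, Vgf and Socs3, and several of them are also in the neuropeptide list. Gap43 and Gal had SC arrays that overlapped PBS.

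**Figure D3:**
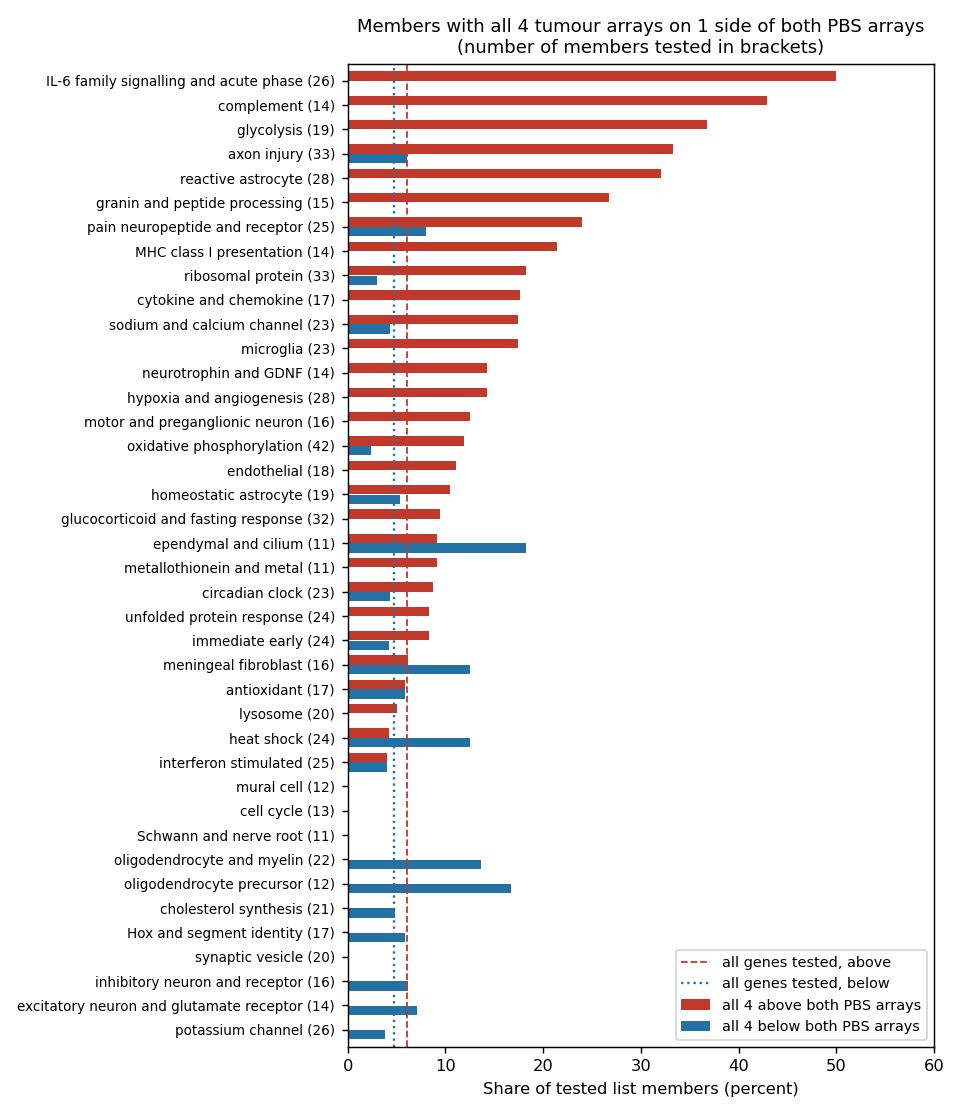
Share of tested members (percent, linear axis from 0) of each gene list with at least 10 tested members that lay above (red) or below (blue) both PBS arrays on all 4 tumour arrays; the dashed and dotted lines are the shares over all 12626 genes, 6.12% above and 4.68% below. The acute phase, complement, glycolysis, axon injury and reactive astrocyte lists have between 32.1% and 50.0% above. The acute phase list, at 50.0%, was put together after the values were seen. The glycolysis share was 10.5% with quantile normalization.

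Cyp1b1, an oxidase of steroids and fatty acids made by pericytes and astrocytes, read 470.1 and 533.9 in PBS, against 1600 and 1546 (N-inv) and 678.3 and 1093 (SC) (1.18 ± 0.21). The N-inv arrays were the highest by a wide margin. Grm2, the metabotropic glutamate receptor 2, lay above at a low level, with 53.18 and 87.22 in PBS, against 152.3 and 145.1 (N-inv) and 311.2 and 217.0 (SC). Kdelr3, which returns proteins to the endoplasmic reticulum, read 162.1 and 104.2 in PBS, against 246.7 and 241.8 (N-inv) and 349.4 and 320.7 (SC). For Grm2 and Kdelr3 the SC arrays were the higher ones.

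The remaining genes of the 15 widest gaps above were 4930573C08Rik, 4930527J03Rik, Capn8, a calpain protease, and Inava, an adaptor of innate immune signalling. All were dim, and their differences lay between 0.80 and 1.51. The other tested probe set of Inava overlapped and had the opposite sign (-0.40 ± 0.24). Of 19 glycolysis genes, 7 (36.8%) lay above and 0 below, with small differences: Ldha, lactate dehydrogenase A, differed by 0.41 ± 0.17 and Hk2, hexokinase 2, by 0.32 ± 0.16. With quantile normalization 2 of 19 glycolysis genes lay above (10.5%, against 6.61% of all genes), so that count depends on the scaling. Of 33 ribosomal protein genes, 6 (18.2%) lay above and 1 below, but with quantile normalization 2 (6.06%) lay above, near the share of all genes. Of 14 MHC class I genes, 3 (21.4%) lay above, against 6.12% of all genes, and 0 below.

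**Figure D4:**
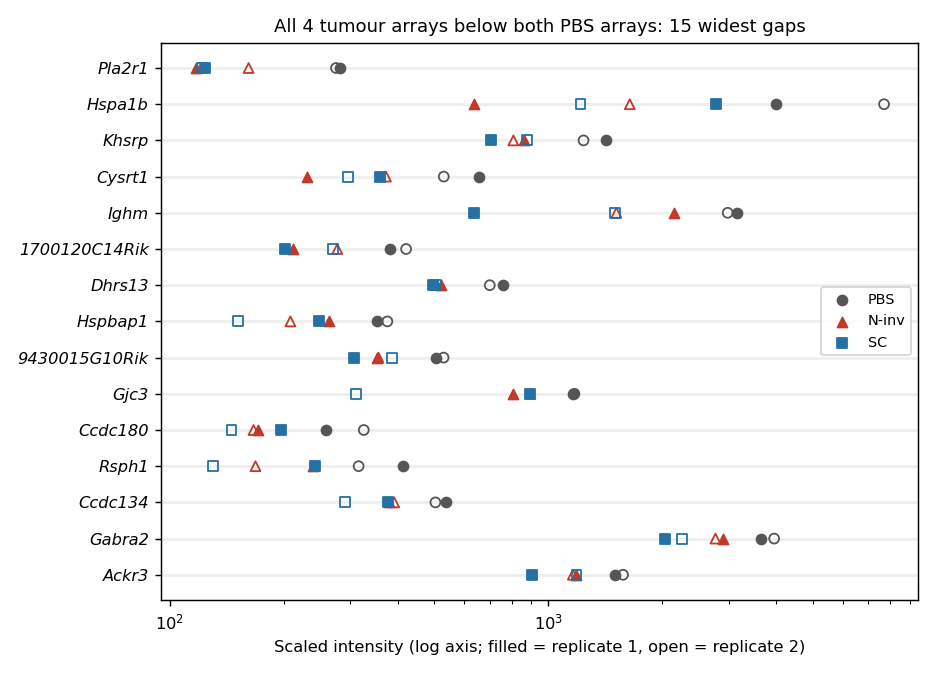
Scaled intensity (log axis) on each of the 6 arrays for the 15 genes with the widest gap among those in which all 4 tumour arrays lay below both PBS arrays, widest first. Grey circles are PBS, red triangles N-inv and blue squares SC, filled for replicate 1 and open for replicate 2; Pla2r1 has the widest gap, and Hspa1b spans the widest range, from 634.6 to 7698.

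On the lower side, Hspa1b had the largest difference of the genes described. Hspa1b and its copy Hspa1a encode HSP70, the chaperone that heat shock factor induces within minutes of protein stress, and are neighbours on chromosome 17. Their 250 upstream bases are shown because the genes are near-identical copies, so probes can read both transcripts. The sequences are from RefSeq, build GRCm38.p6, 5′ to 3′ on the minus strand. Capitals mark GAANNTTC, the core of a heat shock element.
Hspa1b, chr17:34959239-34959488: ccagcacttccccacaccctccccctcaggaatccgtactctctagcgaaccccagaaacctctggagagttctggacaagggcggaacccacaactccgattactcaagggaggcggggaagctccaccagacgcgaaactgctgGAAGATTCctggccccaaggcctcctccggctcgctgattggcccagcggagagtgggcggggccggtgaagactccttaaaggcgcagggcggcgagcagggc
Hspa1a, chr17:34972157-34972406: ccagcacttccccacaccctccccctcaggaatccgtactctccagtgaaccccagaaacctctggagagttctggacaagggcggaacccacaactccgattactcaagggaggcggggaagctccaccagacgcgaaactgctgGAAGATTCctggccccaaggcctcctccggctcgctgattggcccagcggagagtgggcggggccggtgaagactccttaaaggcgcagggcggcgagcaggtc
The windows were identical at 247 of 250 bases (98.8%). Each held the same match, GAAGATTC, which begins 104 bases before the start. A match can share its GAA or TTC with a match of the STAT palindrome. Searched on both strands, the motif was present in 2199 of 32851 windows (6.69%). It was present in 2 of the 12 matched genes with the widest gaps below, Hspa1b and Gabra2, and in 1 of the 12 above, Cartpt.

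Hspa1b read 3988 and 7698 in PBS, against 634.6 and 1640 (N-inv) and 2767 and 1215 (SC). All tumour arrays lay below, the PBS arrays differed from each other by more than SC replicate 1 did from PBS replicate 1, and the difference was -1.99 ± 0.50 (SE). A second probe set also separated the groups (-1.91 ± 0.56), whereas the third had an SC array of 2528 above the PBS array of 2221. Hspa1a read 1475 and 2495 in PBS, against 684.5 and 1056 (N-inv) and 1431 and 845.7 (SC). SC replicate 1 came within 0.04 of PBS on the log2 scale. The separation of Hspa1a was lost with quantile normalization and with the values as deposited. It was kept with the other pseudocounts, which cannot reorder the arrays.

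The other chaperones did not share this pattern. Of 24 heat shock genes tested, 3 (12.5%, against 4.68% of all genes) lay below, Hspa1a, Hspa1b and the factor Hsf2. Hspb1 was the 1 that lay above. The median of the list was -0.06. Dnajb1, the HSP40 partner of HSP70, read 7931 and 10540 in PBS, against 5552 and 6973 (N-inv) and 8763 and 8146 (SC), so its SC arrays overlapped PBS. Hspa8, the constitutive HSC70, differed by 0.11 ± 0.17 (SE).

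Pla2r1, the receptor of secretory phospholipase A2, had the widest gap below. It read 281.5 and 274.8 in PBS, against 117.2 and 161.5 (N-inv) and 124.0 and 121.9 (SC). The PBS arrays were level with each other and the tumour arrays lay far below, with a difference of -0.96 ± 0.16 (SE). Khsrp, an RNA-binding protein that promotes decay of AU-rich mRNAs, read 1417 and 1238 in PBS, against 860.0 and 808.1 (N-inv) and 704.4 and 877.5 (SC) (-0.69 ± 0.16). The sites were level with each other. Of its other 2 probe sets, 1 also lay below (-0.54 ± 0.20) and 1 overlapped (-0.24 ± 0.30).

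Ighm, the immunoglobulin mu heavy chain, read 3140 and 2975 in PBS, against 2144 and 1512 (N-inv) and 637.3 and 1495 (SC) (-1.19 ± 0.34). A second probe set also lay below (-0.75 ± 0.21), and the third had a difference of 0.01 ± 0.16. The lymphocyte markers Cd3e and Ms4a1 lay below the filter on low values, Cd3e at 19.82 to 95.33 and Ms4a1 at 16.16 to 127.4. Cd8a, the 1 lymphocyte list gene tested, read 272.8 and 223.4 in PBS, against 202.9 and 81.69 (N-inv) and 178.2 and 133.9 (SC). Its tumour mean of 149.2 lay under the filter cutoff. What the Ighm probe sets read in SCID cord was not tested.

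Gabra2, the alpha 2 subunit of the GABA-A receptor, through which spinal inhibition acts, read 3646 and 3946 in PBS, against 2891 and 2761 (N-inv) and 2026 and 2257 (SC). The difference was -0.62 ± 0.14 (SE), and the SC arrays were the lowest. The other 3 probe sets of Gabra2 had the same sign but overlapped. The inhibitory neuron list of 16 genes had 1 below (6.2%, against 4.68% of all genes) and 0 above (against 6.12% of all genes).

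Genes of motile cilia were also among the widest gaps below. Rsph1, a radial spoke protein, read 413.9 and 315.3 in PBS, against 238.6 and 168.4 (N-inv) and 242.5 and 129.9 (SC) (-0.85 ± 0.27). Ccdc180, a coiled-coil protein of ciliated tissues, read 258.8 and 325.3 in PBS, against 171.5 and 166.4 (N-inv) and 197.2 and 145.5 (SC). A second probe set of Ccdc180 overlapped, with the opposite sign (0.09 ± 0.24). Of 11 ependymal and cilium genes tested, 2 lay below (18.2%, against 4.68% of all genes), Rsph1 and Ccdc153. Rarres2 was the 1 above (9.1%, against 6.12% of all genes). Foxj1, the master factor of motile cilia, lay below the filter, and Ak7 overlapped, so the separation did not extend to the list.

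The remaining genes of the 15 widest gaps below were Cysrt1, 1700120C14Rik, Dhrs13, Hspbap1, 9430015G10Rik, Gjc3, Ccdc134 and Ackr3, with differences between -0.88 and -0.47. Gjc3, the connexin 29 of oligodendrocytes and Schwann cells, read 1161 and 1171 in PBS, against 805.9 and 896.2 (N-inv) and 896.6 and 309.8 (SC). Ackr3, the scavenger receptor of CXCL12, read 1497 and 1574 in PBS, against 1186 and 1160 (N-inv) and 905.9 and 1186 (SC). In each, a single SC array was the lowest. A second probe set of Gjc3 did not separate the groups: it read 608.0 and 1050 in PBS, against 1171 and 1079 (N-inv) and 368.4 and 567.3 (SC), so its N-inv arrays lay above PBS.

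Myelin and precursor genes leaned lower, and mostly in SC. Of 22 oligodendrocyte and myelin genes tested, 0 lay above and 3 (13.6%, against 4.68% of all genes) below. The 3 were Ugt8a and Fa2h, enzymes of myelin galactolipids, and the receptor Gpr37. Fa2h and Gpr37 lost this separation with quantile normalization and with the values as deposited. Those settings had 5 and 4 of the 22 below. The oligodendrocyte marker Mbp leaned the other way, with 69610 and 75410 in PBS, against 75330 and 80200 (N-inv) and 80640 and 83710 (SC). The marker Mog leaned lower in SC, with 3808 and 3480 in PBS, against 3697 and 3126 (N-inv) and 2469 and 1282 (SC). The median of the list was -0.06 in N-inv against PBS and -0.33 in SC against PBS. Ugt8a read 17550 and 20480 in PBS, against 16850 and 17350 (N-inv) and 15350 and 7164 (SC), so the N-inv arrays lay just under PBS. Of 12 oligodendrocyte precursor genes, 2 lay below (16.7%, against 4.68% of all genes), Gpr17 and Vcan. Gpr17, a receptor of committed precursors, read 694.9 and 940.8 in PBS, against 605.2 and 688.8 (N-inv) and 360.3 and 162.2 (SC). Its SC arrays were far lower than its N-inv arrays. Of 21 cholesterol synthesis genes 1 lay below, 4.8%, against 4.68% of all genes; with quantile normalization it was 6 of 21 (28.6%, against 5.63%), so that count depends on the scaling.

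**Figure D5:**
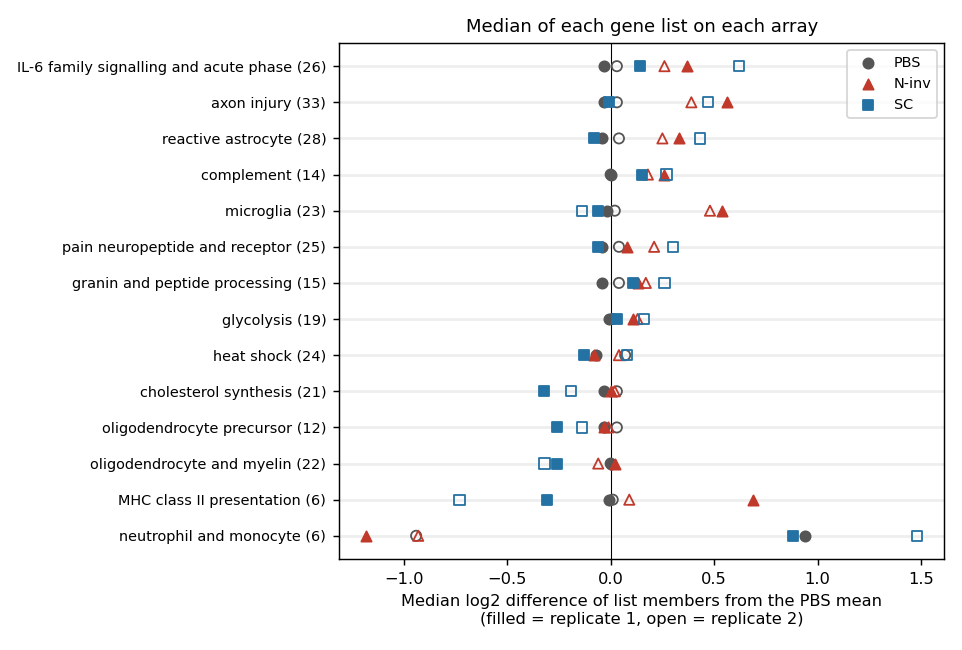
Median log2 difference of the tested members of 14 gene lists from the PBS mean on each array (number of members in brackets), with PBS as grey circles, N-inv as red triangles and SC as blue squares, filled for replicate 1 and open for replicate 2. The acute phase and complement lists lie above 0 on all 4 tumour arrays, the microglial list lies above 0 on the N-inv arrays and below it on the SC arrays, and the neutrophil list separates the 2 PBS arrays from each other.

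The size of the difference at each site was set side by side for the separated genes. N-inv and SC share the PBS arrays, so these values are not independent. Among the 773 genes above, the median difference from PBS was 0.24 in N-inv and 0.28 in SC, and SC lay further from PBS at 463. Among the 591 genes below, it was -0.23 in N-inv and -0.36 in SC, and SC lay further at 447. Tested directly, N-inv and SC differed at 0 of these genes after adjustment (limma), with 33 of the 773 and 54 of the 591 at an unadjusted p under 0.05. Over all 27022 probe sets that test called 0 after adjustment and 2406 (8.9%) at an unadjusted p under 0.05.

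The counts were repeated without the SC arrays that stood apart. Without SC replicate 2, with 3 tumour arrays against 2, the share of all genes was 8.45% above and 9.01% below. In that setting 13 of 26 acute phase genes, 11 of 33 axon injury genes, 10 of 28 reactive astrocyte genes and 7 of 14 complement genes lay above. Without SC replicate 1, on which Gfap lay below and Atf3 within the PBS range, 21 of 33 axon injury genes and 15 of 29 reactive astrocyte genes lay above, against 16.3% of all genes. Without both SC arrays, when only N-inv is compared with PBS, 20 of 23 microglial genes lay above, against 25.3% of all genes and against 17.4% of that list when SC was included. In that comparison 1 probe set, for Sprr1a, had an adjusted p under 0.05 (limma, adjusted p = 0.0455, log2 difference 4.63). With SC replicate 1 alone left out, 2 were called, for Sprr1a (limma, adjusted p = 0.0496) and for Xist, which was high on the remaining SC array.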

How the data were processed

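Per the labels' protocols, total RNA was extracted with TRIzol from lumbar cord and hybridised to Affymetrix 3' expression arrays. The authors deposited linear probe set intensity values, 1 column per array. The 2% trimmed mean of every deposited column was 1000, so they had been scaled per array; the sources used here do not name the summary method. Of 45101 probe sets, 64 controls were left out. The platform annotation gave 1 symbol for 34945, several for 932 and none for 9160; sets with several or none were tested and not named. Each column was then set to a median of 256.2 and transformed to log2(intensity + 25.62), which understates changes of dim genes. Probe sets with a mean above the 40th percentile (155.5) were kept, 27022 in all.

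The test was limma (version 3.58.1, R 4.3.3; lmFit, eBayes, two-sided, 3 group means, 3 residual and 3.59 prior degrees of freedom), with Benjamini-Hochberg adjustment over all probe sets at 0.05. A gene is its brightest tested probe set. Genes named are the 15 per direction with the widest gap between tumour and PBS arrays, 2 to 4 members per list by gap, and Gfap, Aif1, Atf3, Fos, Hspa1b, Xist and Y-linked genes; other genes were chosen after their values were seen. The members and the 48 gene lists, and 1 list added later, were chosen with earlier results of these data known. The scripts were tested on simulated data. Array number limits precision. Replicate numbers did not pair the samples (correlations of deviations 0.01, 0.037 and -0.032). Alternatives varied the filter, pseudocount, normalization, probe set rule, replicate block and arrays; omitting both SC arrays was chosen after seeing the data.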

Additional observations from a re-analysis of the deposited data

Results flagged for a closer look

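For 10 of the 74 genes checked, 1 tumour array lay far from the other 3; chance alone flags about 1 in 20 groups. SC replicate 2 was the distant array for Lcn2 (2530 against 736.2 to 854.6), Gjc3 (309.8 against 805.9 to 896.6), Ccdc134 (290.7 against 377.7 to 391.5), Gpr37 (4733 against 7953 to 8425), Ugt8a (7164 against 15350 to 17350) and Xist (13060 against 140.0 to 228.5). SC replicate 1 was the distant array for Vgf (3548 against 6330 to 6479) and Ackr3 (905.9 against 1160 to 1186). An N-inv array was the distant one for C1qb (replicate 1, 1948 against 1573 to 1607) and for Fos, an immediate early gene (replicate 2, 7742 against 5980 to 6092).

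In 5 of the 44 gene lists with at least 5 tested members, the medians of both N-inv arrays lay on the opposite side of the PBS mean from those of both SC arrays. In the endothelial and the neutrophil lists, some of these medians lay between those of the 2 PBS arrays. The difference between the sites was not tested. The medians against PBS were 0.50 in N-inv and -0.18 in SC for microglia, 0.38 and -0.45 for MHC class II presentation, 0.17 and -0.25 for interferon stimulated genes, and 0.11 and -0.05 for endothelial genes. For neutrophils and monocytes they were -1.10 and 1.04, a list in which the 2 PBS arrays themselves lay at 0.94 and -0.94.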

How the results depend on the processing

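With 2 arrays per group and SC arrays unlike each other, counts of separated genes move with the number of arrays compared, so each is read against all genes in the same setting. The main count of 0 called probe sets was also found with no filter, with the 60th percentile filter, with both other pseudocounts, with quantile normalization, with the values as deposited and with the replicate block (0 called, 1348 at an unadjusted p under 0.05). Leaving out 1 array gave 0 to 2 called, and leaving out both SC arrays gave 1. Probe sets above both PBS arrays numbered 2669 with no filter (5.93%) and 1018 with the 60th percentile filter (5.65%), 2161 to 4983 with 1 array left out and 5869 without both SC arrays. Those below numbered 2644 (5.87%), 954 (5.3%), 2123 to 5105 and 3959. Of 44 list medians, 23 changed sign under at least 1 of 13 alternatives; among them, with the range over the alternatives, were MHC class II presentation (-0.22 to 0.38), glucocorticoid and fasting response (-0.21 to 0.30), neutrophils (-1.11 to 0.98), ependymal genes (-0.41 to 0.52) and oxidative phosphorylation (-0.05 with quantile normalization). The acute phase, axon injury, reactive astrocyte, complement, microglial, neuropeptide and myelin medians kept their sign. No alternative left out both N-inv arrays, so a kept sign does not show that the sites were alike. The microglial median was 0.50 in N-inv and -0.18 in SC against PBS. The acute phase list was put together after the values were seen. Also reversed were the meningeal fibroblast list (0.02 without both SC arrays); with the mean of all probe sets, Hlf (-0.05), Ntrk2 (-0.03) and Pfkp (-0.07); and, over the leave-outs of 1 array, Fos (-0.12 to 0.05), Eif2s3y (-0.42 to 0.18), Kdm5d (-0.01 to 0.21), Il6st (-0.03 to 0.02) and Cx3cr1 (-0.07 to 0.50). Without both SC arrays Fos gave 0.06, Eif2s3y 0.02 and Il6st 0.09. The cause was not tested.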

Other observations

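Shares over all genes were 6.12% above and 4.68% below, and 6.61% and 5.63% with quantile normalization. Of 23 sodium and calcium channel genes tested, 4 lay above PBS on all tumour arrays (Scn3b, Cacna1g, Cacna2d1 and Cacng2) and 1 below (Hcn2), which became 3 and 3 with quantile normalization. Cacna2d1, the channel subunit that binds gabapentin, read 2609 and 2695 in PBS, against 3200 and 3200 (N-inv) and 2769 and 3848 (SC), with a difference of 0.28 ± 0.17 (SE). Another of its probe sets went the opposite way, below PBS on all tumour arrays (-0.19 ± 0.14), and its remaining tested sets overlapped. Of 26 potassium channel genes, 0 lay above and 1 below, and with quantile normalization 0 and 3. Of 42 oxidative phosphorylation genes, 5 (11.9%) lay above and 1 below, but 1 above and 6 below with quantile normalization, which turned the median of the list from 0.04 to -0.05. Of 32 genes of the glucocorticoid and fasting response, 3 (9.4%) lay above and 0 below, and without SC replicate 2, 3 lay above and 10 below (31.2%, against 9.01% of all genes), with the median going from 0.04 to -0.21. Among the 3 was Fkbp5, a glucocorticoid-induced chaperone, which read 1211 and 1241 in PBS, against 1315 and 1321 (N-inv) and 1479 and 5147 (SC).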
